A study of Mus musculus with 10 samples.

Results

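Immunoglobulin genes encode the heavy and light chains of antibodies, and their transcripts were followed here gene by gene through injured, contralateral and uninjured mouse kidneys. Members were taken by symbol: the heavy-chain variable, D and constant genes (symbols starting Ighv, Ighm, Ighd, Ighg, Igha or Ighe, without Ighmbp2) and the light-chain variable and constant genes (Igkv, Igkc, Iglv, Iglc). The rule found 375 of the 33644 genes of the bulk table: 185 Ighv, 160 Igkv and 3 Iglv segments, 14 heavy-chain D segments, 8 heavy constant genes and 5 light constant genes. Of the Ighv and Igkv segments, 70 and 60 were annotated as pseudogenes. In the single-cell tables the same rule found 30 of 15340 genes in the injured library and 7 of 13217 in the uninjured library.

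The study took bulk RNA from 8 groups of kidneys of 8-week-old mice and single cells from 1 injured and 1 uninjured C57/BL6 kidney. In the 3 injured groups the artery of 1 kidney was tied for 15 minutes and the kidney was collected 2 weeks later. These groups were Pax8creERT2;Ihhfl/fl mice given tamoxifen (labelled TG.TAM, here the floxed tamoxifen arm), C57/BL6 mice given tamoxifen (WT.TAM, wild-type tamoxifen) and Pax8creERT2;Ihhfl/fl mice without tamoxifen (TG.VEH, floxed VEH). The opposite, untied kidneys of the same 3 arms formed 3 contralateral groups, and the last bulk groups were uninjured kidneys of C57/BL6 mice and kidneys of C57/BL6 mice whose other kidney had been removed (nephrectomy). The Pax8 promoter drives the inducible Cre in tubular cells, so Ihh of other cells is not targeted, and the background strain of the floxed mice is not given. Each group held 4 numbered libraries. Nothing in the labels says that they were separate animals, so p-values measure only the spread between these libraries. Uninjured libraries 1 and 4 and nephrectomy library 3 were left out because they carried a heart profile, which left 29 libraries with 12 injured and 12 contralateral ones.

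Each antibody pairs a heavy chain with a kappa or lambda light chain. A developing B cell joins V, D and J segments into a variable exon, which is spliced to a constant region: Ighm and Ighd in a naive B cell, and Ighg, Igha or Ighe after class switching. B cells make the membrane form of the chain as part of their receptor, and plasma cells make large amounts of the secreted form. In the injured kidney, B cells and plasma cells are known to gather in lymphoid aggregates, while IgA is the typical isotype of mucosal plasma cells.

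Many variable segments are close copies of each other, which bears on every segment count. Among 113 Ighv segments with a coding V exon, the median identity to the nearest other member was 95.35%, 66 had a copy with at least 95% identity, and 2 were identical to another. The same median was 94.51% over 100 Igkv segments, of which 46 had such a copy. Pairs of segments are shown because their members led the variable reads of injured libraries: Ighv1-26 led in 2 libraries and its near copy Ighv1-18 in another, Ighv1-53 led in 4 and is shown beside Ighv1-72, and Igkv3-4 led in 2 and is shown beside Igkv3-3. Each sequence holds 300 bases of the V exon from its 5′ end, in the sense direction, from GRCm38 with the GENCODE M21 annotation, and capitals mark the bases at which the pair differs. Ighv1-26 (chr12:114788377-114788676, minus strand) and Ighv1-18 (chr12:114682637-114682936, minus strand) were identical at 97.38% of positions over the whole V exon.
Ighv1-26: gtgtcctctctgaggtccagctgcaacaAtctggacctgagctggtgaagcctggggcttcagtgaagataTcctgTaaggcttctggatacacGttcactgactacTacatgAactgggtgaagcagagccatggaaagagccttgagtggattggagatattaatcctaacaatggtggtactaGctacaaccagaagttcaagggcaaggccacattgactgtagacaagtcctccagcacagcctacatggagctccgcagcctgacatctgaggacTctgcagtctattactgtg
Ighv1-18: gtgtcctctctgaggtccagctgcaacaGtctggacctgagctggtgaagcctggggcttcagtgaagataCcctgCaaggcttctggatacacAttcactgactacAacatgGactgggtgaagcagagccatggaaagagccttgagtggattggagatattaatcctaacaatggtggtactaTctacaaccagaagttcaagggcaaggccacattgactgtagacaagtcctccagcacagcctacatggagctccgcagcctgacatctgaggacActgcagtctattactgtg
Ighv1-53 (chr12:115158408-115158707, minus strand) and Ighv1-72 (chr12:115757989-115758288, minus strand) were 96.07% identical.
Ighv1-53: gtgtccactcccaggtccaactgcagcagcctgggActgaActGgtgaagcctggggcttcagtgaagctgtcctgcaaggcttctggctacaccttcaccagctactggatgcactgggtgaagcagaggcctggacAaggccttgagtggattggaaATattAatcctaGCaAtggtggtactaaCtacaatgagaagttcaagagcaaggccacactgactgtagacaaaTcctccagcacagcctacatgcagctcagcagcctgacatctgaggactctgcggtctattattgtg
Ighv1-72: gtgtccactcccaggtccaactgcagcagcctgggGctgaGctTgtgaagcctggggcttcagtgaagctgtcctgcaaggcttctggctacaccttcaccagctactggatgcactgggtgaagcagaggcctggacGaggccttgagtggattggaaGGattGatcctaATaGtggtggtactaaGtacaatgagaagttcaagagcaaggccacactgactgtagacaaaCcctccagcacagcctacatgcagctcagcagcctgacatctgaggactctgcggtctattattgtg
Igkv3-4 (chr6:70672068-70672367, plus strand) and Igkv3-3 (chr6:70687225-70687524, plus strand) were 93.87% identical.
Igkv3-4: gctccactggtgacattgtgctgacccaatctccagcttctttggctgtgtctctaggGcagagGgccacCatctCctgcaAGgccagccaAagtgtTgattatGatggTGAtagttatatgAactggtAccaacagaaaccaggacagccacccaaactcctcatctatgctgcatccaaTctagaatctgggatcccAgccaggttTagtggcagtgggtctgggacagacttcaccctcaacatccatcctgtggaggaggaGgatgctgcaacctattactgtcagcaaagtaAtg
Igkv3-3: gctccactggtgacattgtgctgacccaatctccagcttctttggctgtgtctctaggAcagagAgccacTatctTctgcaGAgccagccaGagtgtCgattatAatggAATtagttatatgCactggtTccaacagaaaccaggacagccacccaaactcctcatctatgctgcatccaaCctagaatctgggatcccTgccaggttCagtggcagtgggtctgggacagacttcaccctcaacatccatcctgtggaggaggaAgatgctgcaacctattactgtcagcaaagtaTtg
Of the 31-base words of Ighv1-26, 25.2% occurred in no other member, against 44.6% for Ighv1-18, 27.1% for Ighv1-53, 1.91% for Ighv1-72 and 44.9% for Igkv3-4. Igkv14-130, with 94.6% of its words found in no other member and its nearest copy, Igkv14-100, at 80.87% identity, was the clearest leader in this respect. Counts of Ighv1-72 and similar segments are therefore uncertain, because the counting may have split reads between copies.

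The secreted and membrane forms of the IgM heavy chain come from the same gene, Ighm (chr12:113418558-113422730, minus strand), and differ in their last coding bases. They are shown because the ratio of these transcripts was measured in every library. The bases found in the secreted transcript Ighm-201 alone lie at chr12:113420870-113420928, and capitals mark the cysteine codon before the last codon, through which secreted IgM is linked into polymers.
Ighm-201: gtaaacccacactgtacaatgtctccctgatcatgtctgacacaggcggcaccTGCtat
The bases found in the membrane transcript Ighm-202 alone are spliced from exons within chr12:113418829-113419068, and capitals mark its last 3 codons, the short cytoplasmic end.
Ighm-202: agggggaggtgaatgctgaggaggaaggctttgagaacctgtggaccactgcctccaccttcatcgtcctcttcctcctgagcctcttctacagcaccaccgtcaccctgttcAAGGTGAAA

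Depth, in megacounts (M), ran from 18.150 M to 26.736 M counts in injured and from 20.912 M to 37.921 M in contralateral libraries. The uninjured libraries 2 and 3 held 0.592 M and 7.548 M, and the nephrectomy libraries 8.322 M to 27.997 M. Slc34a1, which takes up phosphate in proximal tubules, was at 627.1 to 5950 CPM (counts per 1000000 gene counts of the library) in the libraries used and at 0.920 to 3.70 CPM in those left out. Myh6 of heart muscle stood at 30530 to 31550 CPM in the libraries left out and reached 313.6 CPM in nephrectomy library 1. Ihh, the targeted gene, stood at 4.58, 6.09, 5.09 and 4.86 CPM in the injured floxed tamoxifen libraries, 5.99 to 11.8 CPM in wild-type tamoxifen and 6.89 to 15.4 CPM in floxed VEH. It was present in every one of them, and the lowest wild-type value lay below the highest floxed tamoxifen value. In contralateral kidneys its ranges overlapped, with 3.44 to 17.2 CPM in the floxed tamoxifen arm and 8.05 to 14.3 CPM in the others.

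Immunoglobulin transcripts were more abundant in injured than in contralateral kidneys in all 3 arms, but the size of the difference varied widely between injured libraries of a group. Summed over all members, the level was 15924, 48124, 25139 and 12326 CPM in injured wild-type tamoxifen kidneys and 827, 1268, 893 and 917 CPM in their contralateral group. In the floxed VEH arm it was 14062, 2782, 610.0 and 16125 CPM in injured and 194, 581, 121 and 98.2 CPM in contralateral kidneys. In the floxed tamoxifen arm it was 1478, 2685, 1062 and 24139 CPM against 713, 173, 620 and 290 CPM. Every injured library of an arm lay above every contralateral library of that arm. The margin was narrow for floxed VEH library 3 (610.0 against up to 581 CPM). It was also modest for floxed tamoxifen libraries 1 and 3 (1478 and 1062 against up to 713 CPM). Floxed tamoxifen library 4 stood apart, close to the wild-type libraries and far above the other libraries of its group, so its counts of called members, its constant genes and the gene lists are given with and without it. In these terms immunoglobulin made up 0.0610% to 4.81% of all counts in injured kidneys, with a median of 1.32%, and 0.00982% to 0.127% in contralateral kidneys, with a median of 0.0600%. Fewer cells of a type and less RNA per cell cannot be told apart in bulk tissue.

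**Figure D1:**
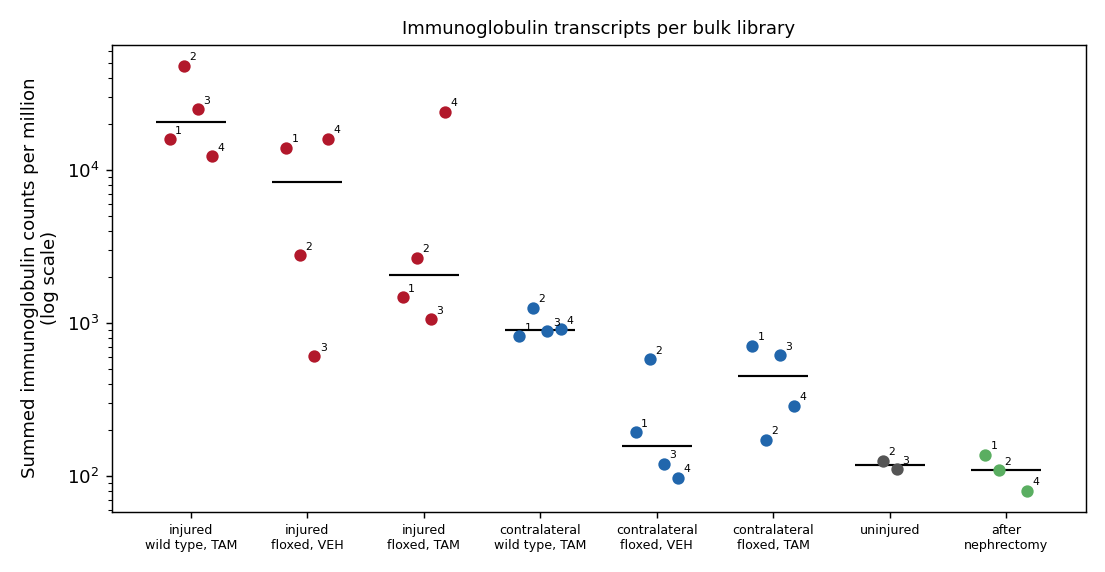
Summed immunoglobulin level of each bulk library in CPM (log axis) by group, with points numbered by library and a horizontal line at each group's median. Injured libraries span 610.0 to 48124 CPM and contralateral ones 98.2 to 1268 CPM, and floxed tamoxifen library 4 sits at 24139 CPM, apart from the other libraries of its group.

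The test of each gene asked whether injury changed it and was run with edgeR's quasi-likelihood test on all 17591 genes that passed a filter on low counts, with Benjamini-Hochberg adjustment and a threshold of 0.05. Of the 375 members, 273 had a count in any of the 29 libraries and 207 passed the filter: 103 Ighv, 89 Igkv and 3 Iglv segments, the 8 heavy constant genes and 4 of the 5 light constant genes. None of the 14 D segments had a count, and Iglc4 was not tested. A member that passed only through its injured libraries had to differ, so these counts describe the 207 and not the whole family. Averaged over the 3 arms, 188 of the 207 rose and 0 fell, where 39.0% of all tested genes rose, 34.7% fell and 73.7% changed in either direction. Their median log2 fold change was 3.68, against 0.05 over all tested genes. For 3 of the 207 every contralateral library was at 0, and with those set to the bound that 3 counts over the group allow the median was 3.69.

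By locus, 93 of 103 Ighv segments rose (median log2 fold change 3.69), as did 80 of 89 Igkv segments (3.40), the 3 Iglv segments (4.41), the 8 heavy constant genes (6.55) and the 4 light constant genes (4.16). In single arms, 148 rose and 0 fell in wild-type tamoxifen, where 60.7% of all genes changed and 32% rose. In floxed VEH 165 rose and 0 fell, beside 63.7% and 32.6% of all genes. In floxed tamoxifen 83 rose and 0 fell, beside 33.8% and 19.3% of all genes. Leaving out floxed tamoxifen library 4 took that last count to 12 of 205 tested members, beside 18.7% of all genes, 11.9% rising. Members were then called less often than genes in general, although their median log2 fold change was 1.365, against 0.007 over all tested genes. Leaving out contralateral library 2 of the same arm took the count to 55, with no all-gene share given here beside it. The median fold changes of the 207 were 3.58, 4.26 and 2.97 on the log2 scale in the order of the arms above, with each arm's all-gene median at 0.03 to 0.07.

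Heavy constant genes moved very unequally. Ighm, the IgM heavy chain, stood at 3745, 15395, 9524 and 1845 CPM in injured wild-type tamoxifen kidneys, at 4098, 330, 45.2 and 4448 CPM in floxed VEH and at 16.3, 628, 279 and 6412 CPM in floxed tamoxifen. In the 12 contralateral libraries it ran from 3.64 to 65.8 CPM, with a median of 17.1 CPM. The lowest injured libraries, floxed tamoxifen 1 and floxed VEH 3, lay within the contralateral range. The log2 fold change of Ighm over the 3 arms was 6.81 (SE 0.86, adjusted p = 1.6e-07).

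Ighg3, Ighg2c and Ighg2b had the largest fold changes of the constant genes over the 3 arms. Ighg3 stood at 0.454 to 206 CPM in injured kidneys (median 57.9) and at 0 to 0.799 CPM in contralateral ones (median 0.0612), a log2 fold change of 7.98 (SE 0.95, adjusted p = 9.4e-08). Ighg2c, the IgG2a-type isotype of C57BL/6 mice, ran from 1.24 to 2019 CPM against 0.0826 to 7.11 CPM and rose by 7.15 on the log2 scale (SE 0.93). Ighg2b ran from 7.55 to 1758 CPM against 0.550 to 11.3 CPM and rose by 7.12 (SE 0.81). Floxed tamoxifen library 1 was the lowest injured library for each of these genes and lay within their contralateral ranges. Floxed VEH library 3 also lay within the contralateral range of Ighg2b. Ighg1, an isotype known to be favoured by interleukin-4, ran from 0.577 to 243 CPM against 0 to 2.14 CPM and rose by 6.28 (SE 0.86). Floxed tamoxifen libraries 1, 2 and 3 all lay within the contralateral range of Ighg1. Wild-type tamoxifen library 4 and floxed VEH library 4 were the highest libraries for Ighg1, at 243 and 224 CPM.

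Igha, the IgA heavy chain, had the smallest fold change of the tested constant genes over the 3 arms. It stood at 775, 1193, 518 and 1749 CPM in injured wild-type tamoxifen kidneys, 803, 191, 133 and 262 CPM in floxed VEH and 532, 216, 86.7 and 710 CPM in floxed tamoxifen. The contralateral values were 297, 409, 269 and 315 CPM, then 46.6, 152, 37.5 and 30.6 CPM, then 280, 39.0, 196 and 96.3 CPM in the same order of arms. Injured and contralateral libraries did not overlap in wild-type tamoxifen and overlapped in the other arms. The log2 fold change of Igha was 1.4 over the 3 arms (SE 0.40, adjusted p = 0.00292), and by arm 1.29 (adjusted p = 0.107), 1.82 (0.0262) and 1.08 (0.222). In floxed VEH that call was lost without injured library 1, where the log2 fold change was 0.93, and without contralateral libraries 1, 3 or 4 (1.64, 1.59 and 1.56).

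Ighd and Ighe stayed low. Ighd, co-expressed with Ighm in naive B cells, ran from 0.254 to 41.6 CPM in injured and 0.501 to 1.33 CPM in contralateral kidneys and rose by 2.74 on the log2 scale (SE 0.56, adjusted p = 0.000109). In counts per kb of transcript, floxed tamoxifen libraries 1, 2 and 3 and floxed VEH libraries 2 and 3 did not exceed its contralateral range. Ighe, the heavy chain of IgE, had 92 counts over the 12 injured libraries and 4 over the 12 contralateral ones, and never exceeded 1.05 CPM (adjusted p = 0.000207 over the 3 arms). In the floxed tamoxifen arm Igha, Ighd (1.31, adjusted p = 0.287) and Ighe (adjusted p = 0.0684) did not pass the threshold, while Ighm (6.96), Ighg1, Ighg2b, Ighg2c and Ighg3 rose. Without injured library 4 of that arm, Ighm (4.54, adjusted p = 0.0121), Ighg2b (5.27, 0.00265) and Ighg3 (6.05, 0.0303) still passed, while Ighg1 (1.37) and Ighg2c (3.20) no longer did. Igha (0.66), Ighe (1.34) and Ighd (-1.59, adjusted p = 0.211) then did not pass either, and the sign of Ighd turned.

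The light constant genes rose together. Igkc (chr6:70726435-70726966, plus strand), the only kappa constant gene, ran from 153 to 11733 CPM in injured kidneys (median 3077) and from 25.9 to 296 CPM in contralateral ones (median 165), a log2 fold change of 4.06 (SE 0.55, adjusted p = 5.0e-07). Its injured values in floxed VEH library 3 (153 CPM) and floxed tamoxifen library 3 (266 CPM) lay within the contralateral range. The lambda genes Iglc3, Iglc2 and Iglc1 rose by 4.46, 4.26 and 4.04 on the log2 scale. In the floxed tamoxifen arm without library 4, Igkc (1.87), Iglc1 (2.95), Iglc2 (1.5) and Iglc3 (2.75) no longer passed the threshold. Lambda made up 1.74% to 13.1% of light constant transcripts per kb in injured kidneys, with a median of 4.27%, and 2.32% to 13.7% in contralateral kidneys, with a median of 3.93%.

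Isotype use was read from heavy constant counts per kb of transcript, so that genes of different length can be compared. IgM was the leading isotype in 8 of the 12 injured libraries, IgA in 3 and IgG in 1, while IgA led in each of the 12 contralateral libraries. In injured wild-type tamoxifen kidneys IgM made up 51.6%, 69.2%, 82.6% and 32.4% of heavy constant transcripts. The floxed VEH values were 65.9%, 24.6%, 14.7% and 55.8%, and those of floxed tamoxifen 2.08%, 51.4%, 57.4% and 55.2%. The contralateral range was 0.850% to 27.5%, so 9 of the 12 injured libraries lay above it. Those within it were floxed tamoxifen library 1, where IgA made up 96.2%, floxed VEH library 3, where IgA made up 60.2%, and floxed VEH library 2, the only library led by IgG, at 55.9%.

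IgA made up 95.8%, 90.9%, 82.7% and 92.6% of heavy constant transcripts in the contralateral kidneys of the wild-type tamoxifen arm, 65.4%, 76.1%, 80.2% and 85.2% in floxed VEH and 98.6%, 65.7%, 92.3% and 88.7% in floxed tamoxifen. In the injured kidneys the share was 4.43% to 41.8%, except for 96.2% and 60.2% in the libraries just named. The shares of IgG were 11.3% to 55.9% in 11 injured libraries and 1.69% in floxed tamoxifen library 1, against 0.410% to 9.48% in contralateral kidneys. The IgG genes were used differently from library to library. Ighg2b held 84.5% and 75.6% of IgG in floxed tamoxifen libraries 2 and 1, Ighg2c held 70.8% in floxed VEH library 3 and 61.2% in wild-type tamoxifen library 1, and Ighg3 held 27.3% in floxed VEH library 1. Ighg1 held 23.0% in wild-type tamoxifen library 4 and 0.381% to 11.2% in the other injured libraries. These shares rest on 5413 to 507416 heavy constant counts per injured library.

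**Figure D2:**
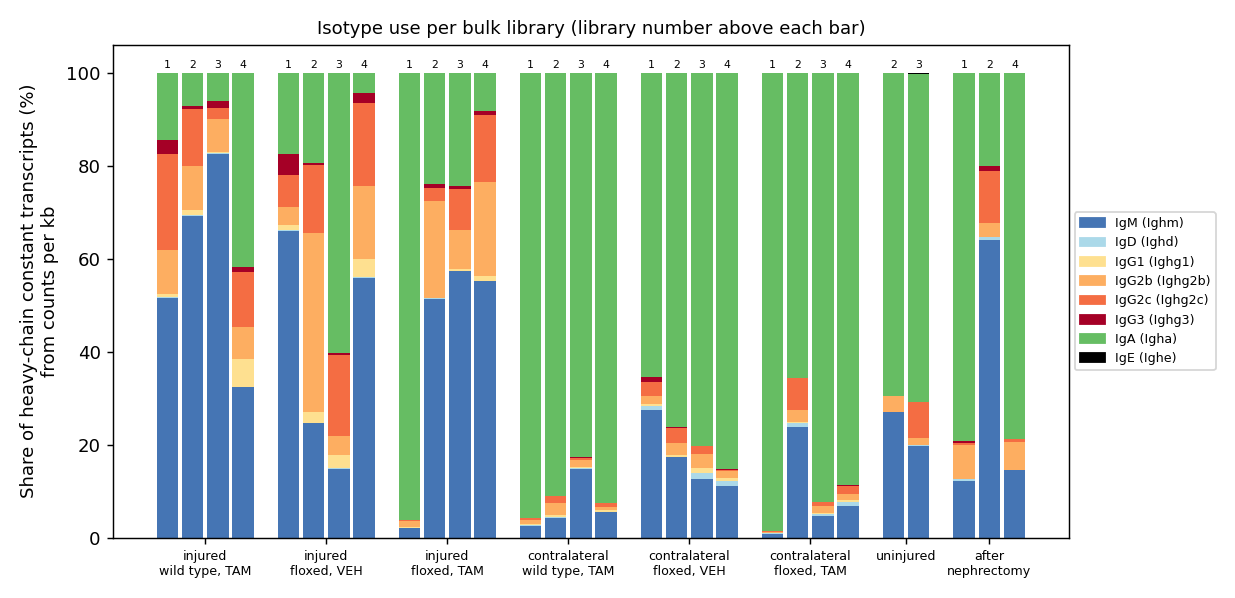
Share of each heavy-chain isotype among heavy constant transcripts per kb, in percent, as 1 stacked bar per bulk library. IgA fills most of every contralateral bar (65.4% to 98.6%), while IgM leads in 8 of 12 injured bars and IgA fills 96.2% of the bar of floxed tamoxifen library 1.

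The Ighm transcripts were mostly of the secreted form in injured kidneys. The secreted form was at 3607, 14894, 9251 and 1772 CPM in injured wild-type tamoxifen kidneys, at 3885, 308, 34.5 and 4248 CPM in floxed VEH and at 10.8, 613, 270 and 6226 CPM in floxed tamoxifen. The contralateral range was 0.603 to 60.1 CPM. As a share of Ighm transcripts per kb, the secreted form made up 94.2% to 97.9% in 10 of the 12 injured libraries, 78.5% in floxed VEH library 3 and 69.0% in floxed tamoxifen library 1. In contralateral kidneys the share ran from 18.5% to 92.4%, with a median of 69.6%. The membrane form ran from 5.52 to 502 CPM in injured and from 3.03 to 7.31 CPM in contralateral kidneys, so both forms were higher in most injured libraries. For Igha the secreted form made up 99.0% to 99.9% in injured kidneys.

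**Figure D3:**
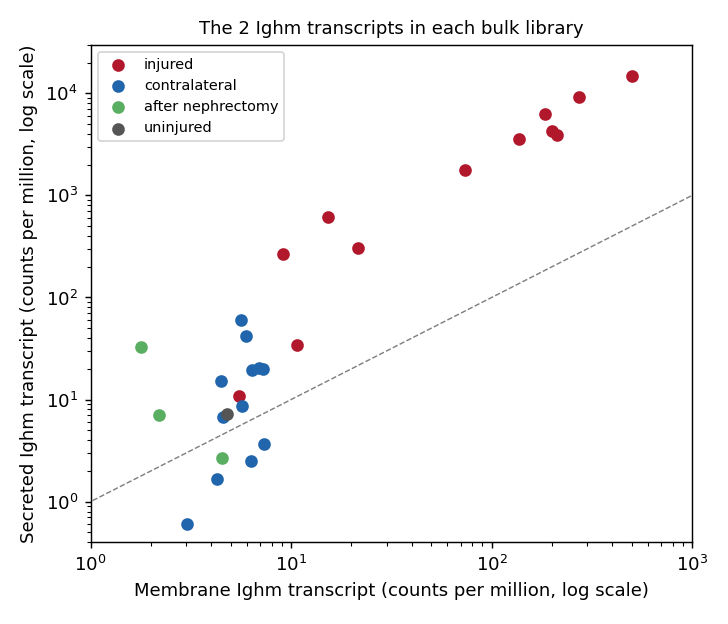
Secreted against membrane Ighm transcripts of each bulk library in CPM, both axes logarithmic, with a dashed line where both are equal. Most injured libraries lie far above the line, and the secreted share is 94.2% to 97.9% in 10 of 12, while contralateral libraries lie around and above the line at 3.03 to 7.31 CPM of the membrane form.

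Variable segments were used broadly in injured kidneys. Between 134 and 204 of the Ighv, Igkv and Iglv segments had at least 3 counts in an injured library, and between 84 and 153 in a contralateral one. Because the depth differed, each library was thinned to 5 M counts. The expected number of segments was then 164, 177, 161 and 152.5 in injured wild-type tamoxifen kidneys, 182, 103.8, 96.5 and 168 in floxed VEH and 92.9, 104.0, 91.1 and 165 in floxed tamoxifen. In contralateral kidneys it was 92.1, 109.8, 94.2 and 91.0, then 41.0, 81.1, 27.7 and 19.6, then 69.5, 40.6, 75.6 and 64.3, in the same order of arms. Within each arm every injured library lay above every contralateral one. Uninjured library 3 reached 22.9 segments, and uninjured library 2 was too shallow.

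More immunoglobulin RNA in a library also means more chances to see a segment, so breadth was read a second way, in draws of 100 variable-segment counts. Here injured kidneys showed no greater breadth: a draw was expected to hold 38.5 to 58.2 segments, with a median of 46.4, in injured libraries and 43 to 58.9, with a median of 52.8, in contralateral ones, so the ranges overlapped. The larger number of segments in injured kidneys thus went with more variable reads, between 4991 and 381713 per injured library. Uninjured library 3 was expected to give 55.4 segments in such a draw.

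Single segments took larger shares in injured than in contralateral kidneys in the median, with overlapping ranges. The leading Ighv segment held 7.81% to 27.0% of Ighv counts in injured libraries, with a median of 13.2%, and 7.03% to 14.0% in contralateral ones, with a median of 9.02%. The leading Igkv segment held 6.67% to 26.4%, with a median of 15.4%, against 6.17% to 18.4% and a median of 10.4%. The inverse Simpson index, the number of equally used segments that would give the same evenness, had a median of 17.2 for Ighv in injured and 26.8 in contralateral kidneys. For Igkv the medians were 17.6 and 23.0. No library was taken over by a single segment.

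**Figure D4:**
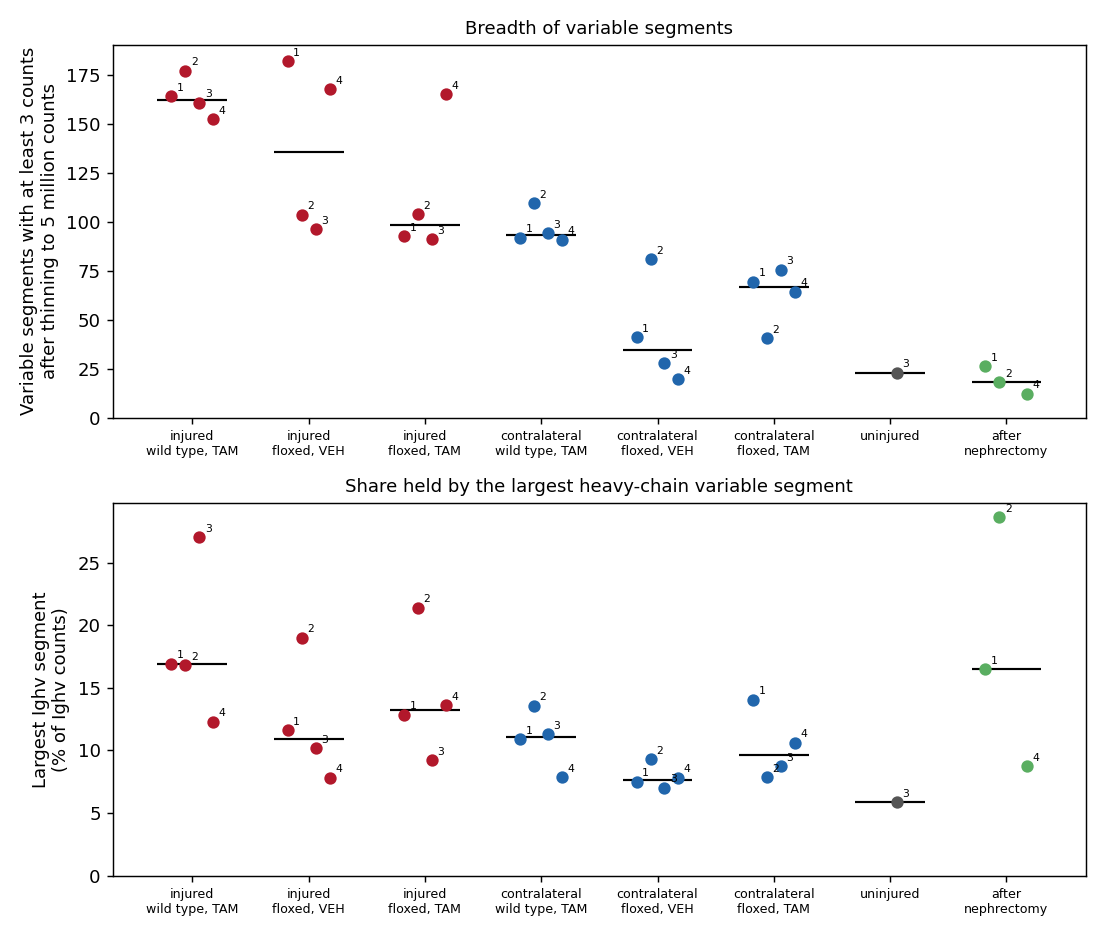
Number of variable segments with at least 3 counts after thinning to 5 M counts, and share of Ighv counts in the leading segment in percent, for each bulk library. Within each arm all injured libraries show more segments than the contralateral ones, and the leading Ighv segment reaches 27.0% in wild-type tamoxifen library 3.

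The leading segment changed from library to library. In wild-type tamoxifen kidneys it was Ighv1-53 (16.9% of Ighv counts), Ighv1-26 (16.8%), Ighv1-18 (27.0%) and Ighv2-2 (12.3%) in libraries 1 to 4. In floxed VEH it was Ighv1-53 (11.6%), Ighv9-3 (19.0%), Ighv1-26 (10.2%) and Ighv1-53 (7.81%), and in floxed tamoxifen Ighv5-9 (12.9%), Ighv6-3 (21.4%), Ighv1-53 (9.21%) and Ighv1-9 (13.6%). Only Ighv1-53 and Ighv1-26 led in more than 1 injured library. Ighv1-53 ran from 2.68 to 1069 CPM in injured kidneys, with a median of 112 CPM, and from 0.235 to 11.4 CPM in contralateral ones. Ighv1-18 reached 1050 CPM in wild-type tamoxifen library 3, where its exact 95% binomial interval was 26.7% to 27.4% of 83244 Ighv counts, and held a median share of 1.14% over the 12 injured libraries. Such intervals cover counting error alone.

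Among kappa segments the leaders were Igkv4-55 (15.6% of Igkv counts), Igkv3-4 (15.4%), Igkv3-4 (25.3%) and Igkv6-23 (17.5%) in wild-type tamoxifen libraries 1 to 4. They were Igkv3-5 (11.2%), Igkv14-130 (26.4%), Igkv9-120 (6.67%) and Igkv2-137 (14.3%) in floxed VEH, and Igkv10-96 (17.4%), Igkv3-12 (15.4%), Igkv8-30 (11.7%) and Igkv3-2 (15.4%) in floxed tamoxifen. Wild-type tamoxifen library 3, which had the largest Ighv share of the injured libraries with Ighv1-18, was also led strongly by Igkv3-4. Igkv14-130 stood at 129 CPM in floxed VEH library 2, at 0 to 1.71 CPM in the other 11 injured libraries and at 0 in 11 of 12 contralateral libraries. Its 2436 counts there made up 26.4% of Igkv, with an exact interval of 25.5% to 27.3%. Of the lambda segments Iglv1 held 63.8% to 96.5% of Iglv counts in injured kidneys.

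Floxed tamoxifen library 1 and the contralateral library with the same number shared their leading Ighv segment, Ighv5-9, at 12.9% and 14.0% of Ighv counts. Ighv5-9 ran from 0 to 56.2 CPM over the injured libraries. The overlap of segment use between these libraries, the sum over segments of the smaller share, was 89.0% for Ighv and 83.5% for Igkv, where pairs of injured and contralateral libraries of an arm with different numbers overlapped by 30.3% to 65.2% for Ighv and 26.5% to 63.1% for Igkv. This comparison was chosen after the values were seen and has no test. Over the 12 pairs with the same number the mean overlap of both loci had a median of 48.4%, and over the 36 pairs with different numbers 48.0%. By that mean, 8 of the 12 injured libraries overlapped most with the contralateral library of their own number, and 7 did so by Ighv or by Igkv alone. In the other direction, 5 of the 12 contralateral libraries overlapped most with the injured library of their own number. These counts also were not tested.

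The named segments with the largest changes over the 3 arms rested on many libraries or on few. Igkv1-99 rose by 7.69 on the log2 scale (SE 1.17, adjusted p = 2.4e-06). It stood at 1.04 to 158 CPM in the 8 injured wild-type tamoxifen and floxed VEH libraries and at 101 CPM in floxed tamoxifen library 4, but at 0 in floxed tamoxifen libraries 1, 2 and 3. Without library 4 its log2 fold change was 3.70 and no longer passed. Igkv3-5 rose by 7.04 (SE 1.17) with 0.0865 to 248 CPM in injured and 0.0267 to 1.13 CPM in contralateral kidneys. Ighv1-5 rose by 6.91 (SE 1.25) and was concentrated in floxed tamoxifen library 4 (441 CPM) and wild-type tamoxifen library 3 (414 CPM), with 0.0848 to 28.8 CPM in the others. Igkv14-130 also passed the threshold (adjusted p = 0.00265), with 2524 counts over the injured and 1 count over the contralateral libraries, and lost the call without floxed tamoxifen library 4 (log2 fold change 6.51).

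In single arms, some of the segments with the largest changes were carried by 1 library. In wild-type tamoxifen and floxed VEH, Ighv1-58 and Ighv1-15 lost their calls without 1 library, and the other named segments kept theirs with any library left out. In wild-type tamoxifen kidneys Ighv1-58 rose by 7.59 on the log2 scale (SE 1.76), with 2.18, 299, 0.793 and 0.719 CPM in the 4 injured libraries. Without library 2 its log2 fold change was 1.64 and the call was lost. Igkv1-88 rose by 8.20 (SE 1.59) with 278, 118, 0.746 and 10.1 CPM. Igkv11-125 had 259 counts in the injured and 0 in the contralateral kidneys of that arm, at least 95.3-fold higher against a floor of 3 counts over the group. Igkv1-99 was the fourth segment named in this arm, at 7.78. In floxed VEH the named segments were Igkv14-130 (2476 counts against 0, at least 1241-fold higher), Igkv6-14 (8.28), Igkv1-99 (8.04) and Ighv1-15 (7.93). Of the Igkv14-130 counts 2436 came from library 2, and without it the log2 fold change was 6.64 (adjusted p = 0.00202). Ighv1-15 stood at 4.61, 1.22, 0.130 and 159 CPM there and was no longer called without library 4 (3.71).

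In floxed tamoxifen kidneys the segments with the largest changes were those of library 4. Ighv2-6-8 stood at 0, 0.0448, 0 and 44.5 CPM and at 0 in the 4 contralateral libraries, at least 373-fold higher against the same floor. Ighv1-5 stood at 0.660, 0.403, 0.0848 and 441 CPM and rose by 9.13 on the log2 scale (SE 2.41). Igkv11-125 stood at 0, 0, 2.04 and 164 CPM and rose by 8.68 (SE 2.08), and Igkv3-5 rose by 7.56. Without library 4 none of these segments passed the threshold, with log2 fold changes of 1.81, 1.11, 2.97 and 4.52.

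The question of Ihh was addressed by comparing injured floxed tamoxifen kidneys with the mean of the intact arms. With all libraries few members passed the threshold, none of them a constant gene, while without floxed tamoxifen library 4 most members did, 10 of the 12 tested constant genes among them. Of the 207 tested members 5 were higher and 25 lower in the floxed tamoxifen arm, where 37.2% of all genes differed, 20.5% higher and 16.7% lower, so the share of members called was below the background. The median log2 difference of the members was -1.33, against -0.01 over all genes. The called members were 16 Ighv and 14 Igkv segments. For constant genes the log2 differences were -1.0 for Ighm (adjusted p = 0.468), -0.48 for Igha (0.552), -0.80 for Igkc (0.421), -2.11 for Ighg3 (0.0999), -1.97 for Ighd (0.0655), -1.82 for Ighg1 (0.170) and 0.07 for Ighg2b (0.960). A p above the threshold does not show that these genes were alike, given a spread from 1062 to 24139 CPM within the group.

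That count depended on single libraries in both directions. Without floxed tamoxifen library 4 it was 120 of 205 tested members, 1 higher and 119 lower, where 43.2% of all genes differed, 22.1% higher and 21.1% lower. The constant genes were then lower by log2 differences of -3.42 for Ighm (adjusted p = 0.0244), -2.62 for Igkc (0.0107), -6.25 for Ighg1 (0.000283), -4.87 for Ighd (0.000286), -4.59 for Ighg2c (0.00429), -4.44 for Ighg3 (0.00366) and -2.49 for Ighg2b (0.0423). Iglc1 (-2.54), Iglc2 (-3.34) and Iglc3 (-2.59) were also lower, while Igha (-0.90, adjusted p = 0.290) and Ighe (-1.28, adjusted p = 0.293) did not pass. The count was 14, 13 and 12 without floxed tamoxifen library 1, 2 or 3. It was 17 without wild-type tamoxifen library 2, 46 without floxed VEH library 3 and 18 without floxed VEH library 4. All-gene shares are given here only for the fit without floxed tamoxifen library 4, so the other counts are not read against a background. DESeq2 called 1 higher and 32 lower and gave no adjusted p for 7, Igkv11-125, Ighv1-7 and Igkv14-130 among them. Of the named segments that were higher in the floxed tamoxifen arm, Ighv1-34 (3.76 on the log2 scale, adjusted p = 0.00804) stood at 2.61, 0.878, 0.170 and 271 CPM and Ighv1-7 (2.92, adjusted p = 0.0269) at 6.23, 0.627, 0.721 and 412 CPM. Both differences turned negative without library 4, at -1.94 and -2.35. Igkv11-125 (6.25, adjusted p = 0.00169) fell to 0.55 without that library and lost the call.

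Igkv4-74 was lower in the floxed tamoxifen arm, with a log2 difference of -3.96 (SE 1.03, adjusted p = 0.00492). It stood at 0.0412, 0.134, 0.212 and 2.06 CPM there, at 4.37, 16.3, 19.1 and 16.3 CPM in wild-type tamoxifen and at 3.05, 16.3, 0.0865 and 17.4 CPM in floxed VEH. Every floxed tamoxifen library lay below every wild-type tamoxifen library, while floxed VEH library 3 lay within the floxed tamoxifen range. Igkv14-126 (-4.23) was called with all libraries, but not without floxed tamoxifen library 2, 3 or 4 (-4.25, -4.12 and -3.83) or floxed VEH library 1 (-2.40). Igkv14-130 (-4.62) rested on floxed VEH library 2 and fell to -1.86 without it. It also lost the call, at -4.22 to -4.69, without floxed tamoxifen library 1, 2 or 3, wild-type tamoxifen library 1, 2 or 3, either uninjured library or contralateral library 4 of the floxed tamoxifen arm. Ighv3-2 (-4.15) lost it, at -3.65 to -4.74, without any of the 4 floxed tamoxifen libraries, wild-type tamoxifen library 2 or 3, floxed VEH library 1 or 4, or contralateral library 2 of the wild-type tamoxifen arm. Ighv3-2 stood at 35.0, 0, 1.26 and 39.4 CPM in floxed VEH and at no more than 0.240 CPM in every other injured library, so its difference lay within 1 intact arm. It was not among the 113 Ighv segments with a coding V exon, a set without annotated pseudogenes, that were compared for close copies.

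The injury effect itself was then compared between arms. The difference of the injury effect, floxed tamoxifen minus the mean of the intact arms, passed the threshold for 0 of the 207 members with edgeR, with 7 at an unadjusted p under 0.05 and 3 called by DESeq2, which gave 41 of them no adjusted p, where 16.1% of all genes passed, 10.4% higher and 5.74% lower. For Ighm the difference was 0.22 on the log2 scale (SE 1.42, adjusted p = 0.933) and for Igha -0.47 (adjusted p = 0.716). Leaving out floxed tamoxifen library 4 raised the count to 32. The count was 1 or 2 without wild-type tamoxifen library 4, floxed VEH library 3 or contralateral library 2 of the wild-type tamoxifen or floxed VEH arm. No all-gene share is given here for these fits, so their counts cannot be read against a background.

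The intact arms also differed from each other. Between injured wild-type tamoxifen and floxed VEH kidneys 9 members passed, 5 higher and 4 lower in wild-type tamoxifen, where 2.23% of all genes differed, 0.540% higher and 1.69% lower. With 64 members at an unadjusted p under 0.05, the median log2 difference of the members was 1.25, against 0.00 over all genes. Ighv1-76 was higher in wild-type tamoxifen by 5.07 on the log2 scale (SE 1.01, adjusted p = 0.00653), with 28.2, 177, 14.4 and 13.1 CPM against 4.46, 0.0531, 0.779 and 1.2 CPM, and the groups did not overlap. Its difference was 3.42 without library 2 of wild-type tamoxifen and was then not called. Ighv1-58 (6.33), Igkv1-88 (5.32) and Ighv1-39 (3.38) were the other named higher segments. Ighv1-58 fell to 0.37 without that library, and it also lost the call without floxed VEH library 1, 2 or 3 or nephrectomy library 1 (5.96 to 6.45). Igkv1-88 lost it without wild-type tamoxifen library 1 or 2 or floxed VEH library 2, 3 or 4 (4.12 to 5.22), and Ighv1-39 without wild-type tamoxifen or floxed VEH library 2, 3 or 4 (2.84 to 3.51). Ighv1-14 was at 55.4, 0, 0.476 and 35.5 CPM in floxed VEH and at no more than 0.121 CPM in wild-type tamoxifen, and Ighv3-2 and Ighv4-2 were likewise high in floxed VEH libraries 1 and 4. Their log2 differences were -8.83, -7.48 and -7.24. None of these segments was among the 113 Ighv segments with a coding V exon, a set without annotated pseudogenes. Their likeness to other copies was therefore not measured. Ighv1-14 lost the call without any of the wild-type tamoxifen or nephrectomy libraries, floxed VEH library 1 or its contralateral library 1 (-7.80 to -10.02). Ighv4-2 lost it without any wild-type tamoxifen library, floxed VEH library 4 or nephrectomy library 1 (-6.29 to -7.86). The count was 4, 1 and 5 without wild-type tamoxifen library 1, 2 or 3, 16 without floxed tamoxifen library 4 and 18 without floxed VEH library 4. All-gene shares of these fits are not given here, so these counts are not read against a background.

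Kidneys without injury held little immunoglobulin RNA, and IgA led the heavy constant transcripts in 4 of the 5 libraries. The summed level was 127 and 112 CPM in the uninjured and 139, 110 and 80.9 CPM in the nephrectomy libraries. Igha stood at 33.8 and 30.1 CPM in uninjured and 43, 7.97 and 26.4 CPM in nephrectomy kidneys. IgA made up 69.5% and 70.5% of heavy constant transcripts per kb in uninjured kidneys, but uninjured library 2 had only 33 heavy constant counts, of which Igha held 20, or 60.6% of plain counts with an exact interval of 42.1% to 77.1%. In nephrectomy kidneys IgA held 79.2%, 20.1% and 78.7%, and nephrectomy library 2 was led by IgM at 64.0%. There Ighv1-53 held 28.6% of 524 Ighv counts, with an exact interval of 24.8% to 32.7%, the largest Ighv share among the libraries used that had at least 50 Ighv counts.

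Against uninjured kidneys the contralateral kidneys showed 0 members past the threshold with edgeR, 1 at an unadjusted p under 0.05 and 2 by DESeq2, where 0.455% of all genes passed, 0.239% higher and 0.216% lower. Igha was at 30.6 to 409 CPM in contralateral kidneys and had a log2 difference of 2.34 (SE 0.98, adjusted p = 0.346). Of the 207 members 95 had no count in the uninjured libraries, Ighg1 and Ighg3 among them, and at their depth most differences were not detectable. The comparison of nephrectomy with uninjured kidneys also gave 0 members, with 1 at an unadjusted p under 0.05 and 1 by DESeq2, beside 0.176% of all genes, 0.131% higher and 0.0455% lower. These comparisons share the uninjured libraries.

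Genes that accompany antibody production were read from 6 lists. Of 18 plasma cell genes 16 rose and 0 fell with injury over the 3 arms, where 39.0% of all tested genes rose and 34.7% fell. Their median log2 fold change was 1.77. Pou2af1, a coactivator of immunoglobulin transcription, rose by 4.58, and Irf4, a factor needed for plasma cell fate, by 3.70. Mzb1, a chaperone of the antibody-secreting cell, rose by 3.48 and Tnfrsf17, the survival receptor BCMA, by 3.45. Jchain, which links IgM and IgA into polymers, stood at 1589, 3876, 2319 and 1425 CPM in wild-type tamoxifen, 1527, 226, 66 and 1046 CPM in floxed VEH and 200, 230, 105 and 1766 CPM in floxed tamoxifen, against 9.93 to 191 CPM in contralateral kidneys. Floxed VEH library 3 and floxed tamoxifen library 3 lay within the contralateral range, and Jchain rose by 3.31. Creld2 (0.35, adjusted p = 0.183) and Fkbp11 (-0.18, adjusted p = 0.360) did not pass.

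The 17 B cell genes all rose over the 3 arms, with a median of 3.72, among them Cd22 (4.59), Blk (4.59) and Fcrla (4.16). In the floxed tamoxifen arm 10 of the 17 rose, beside 11 of the 18 plasma cell genes, where 19.3% of all genes rose. Without library 4 of that arm these counts were 1 and 3, where 11.9% of all genes rose, so neither stood clearly above that share. Over the 3 arms, where 39.0% of all genes rose, 10 of 11 tested genes of germinal centres and class switching rose. Cxcl13, the follicle chemokine, stood at 0.594 to 41.4 CPM in injured and 0.0393 to 0.687 CPM in contralateral kidneys and rose by 4.79 (SE 0.49). Il21 had 369 counts against 2, and Mef2b 203 against 6. Bcl6 was at -0.03 (adjusted p = 0.947). Of the precursor genes of V(D)J joining Vpreb1 alone passed the filter on low counts, and it fell by 3.51 on the log2 scale at levels of no more than 0.500 CPM.

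Antibody receptors and survival factors changed less uniformly. Over the 3 arms, where 39.0% of all genes rose and 34.7% fell, 6 of 8 tested receptor and transport genes rose and 1 fell. The Fc gamma receptor genes Fcgr3 (2.63), Fcgr1 (2.30) and Fcgr4 (1.47) rose, as did Fcer1g (2.04), the chain through which they signal. Fcgrt, which encodes the neonatal Fc receptor that salvages IgG, fell by 1.05 on the log2 scale, and Pigr, the epithelial transporter of IgA and IgM, was at -0.15 (adjusted p = 0.396). Of 5 tested survival factors 3 rose: Tnfsf13b (BAFF) by 3.09, Il6 by 2.71 and Tnfsf13 (APRIL) by 0.87. Between floxed tamoxifen and intact injured kidneys, where 20.5% of all genes were higher and 16.7% lower, 1 plasma cell gene was higher and 3 lower, and 0 B cell genes were higher and 3 lower. Among the genes of germinal centres 0 were higher and 4 lower, among the receptor and transport genes 1 was higher and 4 lower, and among the survival factors 1 was higher and 2 lower. Without floxed tamoxifen library 4, where 22.1% of all genes were higher and 21.1% lower, 1 plasma cell gene was higher and 13 lower, and all 17 B cell genes were lower. The counts of lower genes were then 8 of 11 for germinal centres, 6 of 8 for receptors and transport and 3 of 5 for survival factors.

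The single-cell libraries showed which cells held these transcripts. There was 1 library of 3063 cells from an injured and 1 of 1313 cells from an uninjured kidney, so no test was possible. Cells were clustered without the immunoglobulin genes and named from markers of other genes, and 9.5% of injured and 2.74% of uninjured cells stayed in unnamed clusters. The injured library held 272231 immunoglobulin UMIs (unique molecular identifiers, 1 per counted transcript molecule), 3.51% of all its UMIs, and the uninjured library 5420, or 0.134%. A cluster of 56 plasma cell-like cells, 1.83% of the injured library (exact 95% interval 1.38% to 2.37%), held 247752 of them, or 91.0% (Poisson interval of the count 246777 to 248730). In these cells immunoglobulin made up 60.3% of all UMIs, with a median of 4107 UMIs per cell and a highest value of 9346. The 9 plasma cell markers were all higher in this cluster than in the other cells, but the cluster was named from them, so this gives no separate support.

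The 316 B cell-like cells, 10.3% of the injured library (9.26% to 11.4%), held 14924 immunoglobulin UMIs, 5.48% of the total, with a median of 34 per cell. The 344 T cell-like cells held 4947, of which 4228 lay in 1 cell that also had UMIs of the plasma cell gene Mzb1 (10), of Cd3g (4) and of Slc34a1 (5). No doublet caller was run, so such cells remained. Immunoglobulin UMIs were also found in proximal tubule-like cells, which are not known to make antibody: 77.6% of 902 such cells of the injured library had at least 1 immunoglobulin UMI (74.7% to 80.3%), at a median depth of 2027 UMIs per cell, and 0.111% had at least 10. In the uninjured library the share was 4.58% of 1047 cells (3.40% to 6.03%), at a median depth of 2503. Free RNA and doublets were not told apart. For this reason an isotype was given only to cells with at least 10 UMIs of the chain. At least 10 immunoglobulin UMIs were found in 396 injured cells (12.9%) and in 4 uninjured cells (0.305%). The libraries shared 8 cell barcodes.

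**Figure D5:**
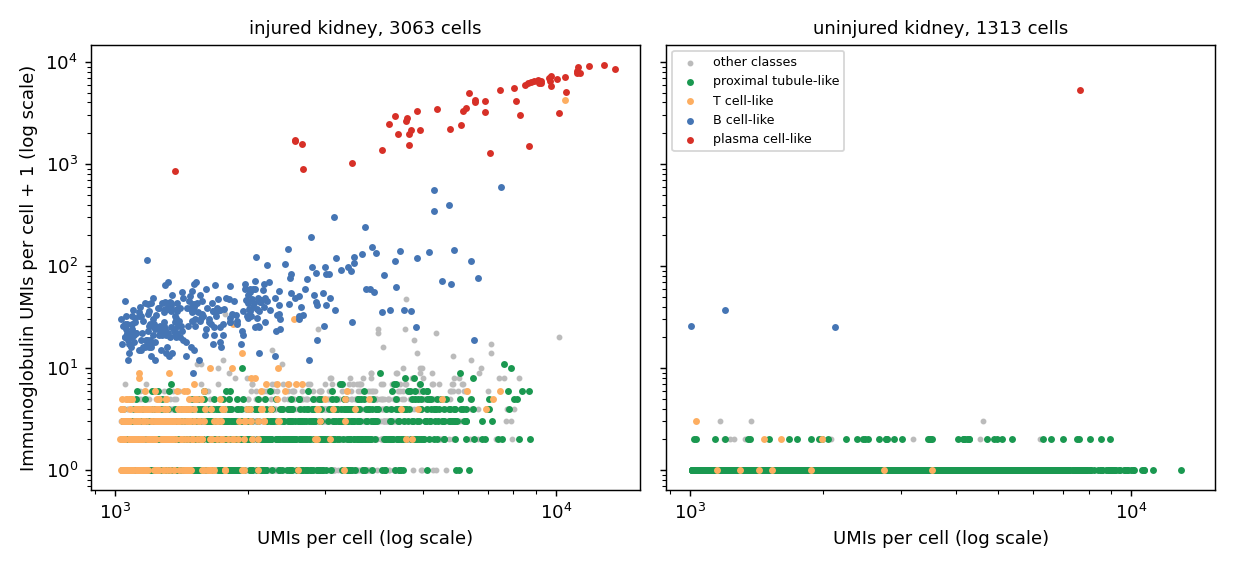
Immunoglobulin UMIs plus 1 against all UMIs of each cell in the injured and uninjured single-cell libraries, both axes logarithmic, coloured by cell class. The 56 plasma cell-like cells of the injured kidney have a median of 4107 immunoglobulin UMIs, and B cell-like cells have a median of 34 and a highest value of 598. A T cell-like cell reaches 4228, and the uninjured library has 1 plasma cell-like cell.

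IgM dominated in single plasma cells, and it led in 8 of the 12 injured bulk libraries. Of the 56 plasma cell-like cells 49 were IgM cells (87.5%, exact interval 75.9% to 94.8%), 6 expressed mainly Ighg2b (10.7%, 4.03% to 21.9%) and 1 mainly Igha (1.79%). Plasma cells held 65788 of the 71564 Ighm UMIs, 5315 of the 5618 Ighg2b UMIs and 173378 of the 187942 Igkc UMIs. Ighg2c and Ighg3, abundant in bulk kidneys, had 31 and 36 UMIs, and Igha had 387, of which 289 lay in 1 cell. Ighg1 and Ighe had no row in these tables. All 56 plasma cells carried kappa as their main light chain (93.6% to 100%), and it held a median of 98.9% of a cell's light constant UMIs.

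Nearly all B cell-like cells with an isotype call were called unswitched. Of 137 cells with at least 10 heavy-chain UMIs 135 (98.5%) were IgM or IgD cells, 1 was Igha and 1 Ighg2b. The call took the isotype with most UMIs, down to 53.8% of a cell's heavy-chain UMIs. Ighg2b UMIs were found in 73 of the 316 B cell-like cells. Ighd lay almost wholly in B cells, with 186 of 199 UMIs, and 1 UMI in plasma cells. Of 301 B cell-like cells with a light chain call 272 were kappa and 29 lambda (9.63%, 6.55% to 13.5%). In the uninjured library the only plasma cell-like cell held 5264 of the 5420 immunoglobulin UMIs, 97.1%, and was an Igha and kappa cell with 1154 Igha, 4066 Igkc and 42 Igkv8-27 UMIs. The 3 B cell-like cells there held 85 UMIs.

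Variable segments were barely seen in these 3′ libraries. They made up 0.390% of immunoglobulin UMIs in the injured library, over 19 segments, and 1 segment had a row in the uninjured table. Iglv1 had the most UMIs, 706, of which 689 lay in 47 of the 56 plasma cells, all of which were called kappa, and 169 in 1 cell. The next segments were Igkv3-2 with 88, Igkv4-55 with 82, Iglv3 with 38 and Ighv1-53 with 32 UMIs. These counts are too few to give breadth or dominance per cell.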

How the data were processed

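The bulk table holds estimated counts per transcript (expected counts), which the authors made with Salmon 1.4 on GRCm38 (mm10), per the submitters' processing notes. Index and options are not given in these sources. For the single cells the deposited values are UMI counts of each gene in each barcode, made by the authors with Cell Ranger and STAR from sorted live cells, per the labels and the submitters' processing notes. Every deposited barcode had at least 1004 UMIs and at most 2496 genes.

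Of 105833 transcripts 105203 were found in GENCODE M21, and the others held 0.213% of counts. Counts were summed per gene and rounded. Since 83.2% of positive values were not whole, the tests planned for counts were run on rounded estimates. Bulk tests used edgeR 4.0.16 in R 4.3.3 (TMM, filterByExpr, glmQLFit, quasi-likelihood F tests, 1 coefficient per group, Benjamini-Hochberg adjustment over all tested genes), on 29 libraries, and were tested on simulated data. Alternatives were RLE factors, no low-count filter, DESeq2 1.42.0, other sets of libraries, each library left out, a block by library number and segments summed to families. Isotype shares need at least 20 heavy constant counts per library, and shares of a locus at least 50.

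Cells were clustered with Leiden (leidenalg 0.10.2, resolution 1, 2000 variable genes, 30 components, 20 neighbours) after removing the members, without a doublet caller. Clusters were named from marker lists. Intervals for counts and shares are exact, at 95%, and cover counting error only, since PCR copies are not independent molecules.

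Members, gene lists and the rules for named genes were chosen with earlier results of these data known. Named were constant genes, per comparison and direction the 4 segments with the largest log2 fold change past the threshold at a mean log2 CPM of at least 1, each segment leading its locus in an injured library, per single-cell library the 5 segments with most UMIs, and up to 4 genes per list. Some genes that this rule picked are not reported here. Other genes of the lists, and Ighv5-9 and its overlap, were added after their values were seen. The 12 pairs of like-numbered libraries had correlations between -0.23 and 0.20, not above 0.1 in each of them, and the main tests treat libraries as unpaired.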

Additional observations from a re-analysis of the deposited data

Results flagged for a closer look

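Among 72 checks of groups of 4 libraries (12 measures in 6 groups), 7 values, in 5 libraries, stood far from the other libraries of their group, with a gap of over 0.829 of the group's range. Chance alone gives about 1 such value in 20 groups. The summed immunoglobulin level of floxed tamoxifen injured library 4 was 24139 CPM, with the other libraries of its group at 1062 to 2685 CPM. In floxed tamoxifen injured library 1 IgM made up 2.08% of heavy constant transcripts, against 51.4% to 57.4% in its group, and the secreted form made up 69.0% of Ighm, against 97.1% to 97.9%. The secreted share of Ighm was 78.5% in floxed VEH injured library 3 and 94.2% to 96.0% in the rest of that group. Contralateral library 4 of the floxed VEH arm had an IgG share of 2.51%, against 5.94% to 6.41%, and an inverse Simpson index of its Igkv segments of 21.2, against 29.3 to 30.3. Contralateral library 1 of that arm had a lambda share of 10.5%, against 3.03% to 4.0%.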

How the results depend on the processing

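With variable segments summed to families, 48 units were tested in place of 207, and the members called numbered 47 over the 3 arms, 45 in wild-type tamoxifen, 44 in floxed VEH, 30 in floxed tamoxifen, 7 for floxed tamoxifen against intact kidneys and 0 between the intact arms; the leading Ighv family held a median of 68.4% of Ighv counts. With all 32 libraries, the counts were 6 for floxed tamoxifen against intact, 2 between the intact arms and 24 for contralateral against uninjured kidneys; with the 24 libraries of the ischaemia arms 4 were called between the intact arms. DESeq2 called 3 for the difference of the injury effects, 2 for contralateral and 1 for nephrectomy against uninjured kidneys, and gave no adjusted p for 7 of the 207 members, or for 41 and 34 in the difference of the effects and between the intact arms. RLE factors moved the median of all genes in the floxed VEH arm from 0.07 to 0.19 on the log2 scale and left all counts of members within 5 of the main ones. The replicate block by library number gave 39 in floxed tamoxifen, 177 over the 3 arms, 150 in wild-type tamoxifen, 128 in floxed VEH and 0 for the difference of the effects; under the block Igkc, Iglc2, Iglc3 and Igkv11-125 lost their calls in floxed tamoxifen. The numbers were not shown to pair the libraries, and 5 of 12 injured libraries correlated best with their own number.

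Leaving out each library in turn gave 164 to 194 over the 3 arms, 106 to 153 in wild-type tamoxifen, 112 to 172 in floxed VEH, 12 to 94 in floxed tamoxifen, 12 to 120 for floxed tamoxifen against intact, 0 to 32 for the difference of the effects and 1 to 18 between the intact arms. Except where given above, no all-gene share is reported for these fits or for the alternatives. In floxed tamoxifen against intact kidneys, Ighv1-34 ran from -1.94 to 4.17 and Ighv1-7 from -2.35 to 3.49, negative only without floxed tamoxifen library 4. Of 3261 refits of named genes 3150 kept direction and side of the threshold. The causes were not tested. Depth limits the uninjured libraries most, with 0.592 M and 7.548 M counts.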

Other observations

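The libraries left out for their heart profile held 92.0 and 9.44 CPM of immunoglobulin transcripts (uninjured libraries 1 and 4) and 25.6 CPM (nephrectomy library 3), while the other libraries of those groups held 80.9 to 139 CPM.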
